A study of Mus musculus with 8 samples.

Results

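Iron handling transcripts were examined in mouse medial prefrontal cortex as a set of 10 genes named for their known roles, led by Tfrc, the transferrin receptor gene. Tfrc was chosen by its edgeR p in the comparison described here, so its difference is given as a description and supports nothing further. The other 9 were added for their function: Slc11a2 and Steap3 in uptake, Fth1, Ftl1 and Ncoa4 in storage, Slc40a1 and Cp in export, and Aco1 and Ireb2 as regulators. All 10 were found among the 54446 gene identifiers of the count table, and all 10 passed the low-count filter that left 17636 genes for testing. The experiment compared 4 libraries labelled Ino80e overexpression with 4 libraries from wild-type mice. Ino80e belongs to the INO80 complex, which remodels chromatin. Per the design text, the mouse model was made by stereotaxic delivery of an AAV vector to that cortical area so as to dysregulate a schizophrenia risk gene. The sources used here do not give the promoter or serotype of the vector, any control virus in the wild-type mice, or the strain, age and sex of the animals. Nothing in the labels ties a library to its own mouse, so p-values reflect only how far these libraries spread, part of which may be technical.

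Cells take up iron mainly by binding iron-loaded transferrin to the transferrin receptor and drawing the complex into endosomes, where a STEAP reductase reduces the iron and the transporter DMT1, encoded by Slc11a2, moves it to the cytosol. Iron not in use is stored in ferritin, a shell of heavy (Fth1) and light (Ftl1) chains that NCOA4 delivers for breakdown, and leaves the cell through ferroportin (Slc40a1) with the help of the ferroxidase ceruloplasmin (Cp). The iron regulatory proteins, encoded by Aco1 and Ireb2, bind a stem-loop called the iron-responsive element (IRE) when iron is scarce: at the start of ferritin and ferroportin transcripts this blocks translation, and in the 3′ UTR of Tfrc it protects the transcript from decay. Tfrc transcript abundance is therefore a classical readout of cellular iron, whereas ferritin is controlled largely at translation, which read counts do not measure. In brain the receptor is known for its abundance in capillary endothelium and neurons.

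The stem-loops themselves are shown because they set Tfrc apart from the other genes of the set at the sequence level. The transcripts of the annotation, GENCODE M21 on the GRCm38 build, were searched on the transcript strand for a C, 5 bases, the loop CAGTG with 1 further base, and 5 bases able to pair with the first 5, G-T pairs allowed. Each sequence below is 29 bases long, 5′ to 3′, with the loop in capitals. The names A to D only give the order of the Tfrc matches found here and are not the published names of its IREs. An IRE with a loop other than CAGTG could not be found by this search. The Tfrc 3′ UTR held 4 of them, on the plus strand of chromosome 16 (chr16:32631219-32631247, chr16:32631598-32631626, chr16:32631663-32631691 and chr16:32631710-32631738), in transcript order:
Tfrc IRE A: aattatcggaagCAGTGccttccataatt
Tfrc IRE B: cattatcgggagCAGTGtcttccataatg
Tfrc IRE C: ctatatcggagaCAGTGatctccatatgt
Tfrc IRE D: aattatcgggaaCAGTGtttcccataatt
The 5′ UTRs of Fth1 (plus strand, chr19:9982732-9982760), Ftl1 (minus strand, chr7:45459779-45459807) and Slc40a1 (minus strand, chr1:45925465-45925493) held 1 each:
Fth1: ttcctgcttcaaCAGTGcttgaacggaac
Ftl1: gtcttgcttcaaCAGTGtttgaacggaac
Slc40a1: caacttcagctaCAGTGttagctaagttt

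Of 20969 annotated 3′ UTRs, taken from the longest coding transcript of each gene, 0.563% held this stem-loop. Tfrc was the only one with more than 1, and the other 117 genes had 1 each. Of 20701 5′ UTRs, 0.0966% held it, in 20 genes with 1 each, among them Fth1, Ftl1 and Slc40a1. Slc11a2, of which an alternative 3′ UTR is known to carry an IRE, had no match to these letters, and neither had Steap3, Cp, Ncoa4, Aco1 or Ireb2.

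The libraries held 47700489 to 60490153 counts in the group labelled overexpression and 44762378 to 55379790 counts in wild type. Levels are given as CPM, the usual depth-scaled read count, with library sizes adjusted by TMM scaling. Ino80e itself stood at 74.1, 23.4, 23.3 and 45.04 CPM in overexpression replicates 1 to 4, against 22.3, 19.5, 25.5 and 20.7 CPM in wild-type replicates 1 to 4. Replicates 2 and 3 of the group labelled overexpression therefore lay inside the wild-type range and go against their label, so all directions are those of the libraries as labelled. The tissue label was checked on 8 neuronal markers, all detected, which summed to 8136 to 8782 CPM in the libraries labelled overexpression and 8158 to 9104 CPM in wild type. These markers cannot tell one brain region from another, so only the neural origin was checked.

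Per kilobase of annotated exon, the set spanned a wide range of levels. Fth1 was the most abundant at 454 CPM per kb in the libraries labelled overexpression and 451 CPM per kb in wild type, followed by Ftl1 at 35.7 CPM per kb in the libraries labelled overexpression and 32.8 CPM per kb in wild type. Tfrc came next at 17.8 CPM per kb in the libraries labelled overexpression and 22.03 CPM per kb in wild type. A middle group held Aco1, Slc11a2, Ireb2 and Ncoa4, at 8.37, 7.06, 5.55 and 5.34 CPM per kb in the libraries labelled overexpression and 8.47, 7.40, 5.99 and 5.68 CPM per kb in wild type. Cp, Steap3 and Slc40a1 were lowest, at 1.92, 1.64 and 1.34 CPM per kb in the libraries labelled overexpression and 1.93, 1.44 and 1.43 CPM per kb in wild type. Over all 8 libraries the ranges of Aco1 and Slc11a2 overlapped, as did those of Ireb2 and Ncoa4, of Cp and Steap3, and of Steap3 and Slc40a1, while the other neighbours in this order did not overlap. The order rests on the length of all annotated exons of a gene, which is longer than the main transcript for several of these genes, and the Ftl1 level is uncertain for the reasons given with it.

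Tfrc was lower in every library labelled overexpression than in every wild-type library. Tfrc (ENSMUSG00000022797, chr16:32608920-32632794, plus strand) stood at 101, 108, 115 and 116 CPM in overexpression replicates 1 to 4, against 139.9, 143, 129 and 134 CPM in wild-type replicates 1 to 4. The groups did not overlap: the highest library labelled overexpression, replicate 4, lay below the lowest wild-type library, replicate 3. Means were 110.0 ± 6.78 CPM in the libraries labelled overexpression and 136 ± 6.21 CPM in wild type (SD, n = 4 each), a fall of 19.2% in the mean and a log2 fold change, overexpression minus wild type, of -0.31 (SE 0.055). The edgeR adjusted p by which Tfrc was chosen was 0.037, and its p ranked 4 among all genes tested. The coefficient of variation between libraries was 6.16% in the group labelled overexpression and 4.56% in wild type. In bulk tissue, fewer cells of a type and less RNA per cell cannot be told apart.

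Neither Slc11a2 nor Steap3, which act beside the receptor in the endosome, passed the test. Slc11a2 (DMT1, the endosomal iron transporter; ENSMUSG00000023030, chr15:100387898-100425072, minus strand) had 41.2, 46.0, 47.9 and 44.5 CPM in overexpression replicates 1 to 4, against 48.03, 46.2, 47.5 and 46.4 CPM in wild-type replicates 1 to 4. Its groups overlapped through overexpression replicate 3, and the other 3 libraries labelled overexpression lay below all wild-type libraries. The log2 fold change was -0.068 (SE 0.060, 95% interval -0.19 to 0.056, edgeR adjusted p = 0.70). Steap3, a ferrireductase best known from red cell precursors (ENSMUSG00000026389, chr1:120190757-120272705, minus strand), had 9.15, 8.61, 8.81 and 10.8 CPM in overexpression replicates 1 to 4, against 8.38, 8.37, 8.44 and 7.72 CPM in wild-type replicates 1 to 4. Its groups did not overlap, with all libraries labelled overexpression higher, yet by a narrow margin apart from overexpression replicate 4. The log2 fold change of Steap3 was 0.18 (SE 0.11, 95% interval -0.049 to 0.42) and did not pass (edgeR adjusted p = 0.56).

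**Figure D1:**
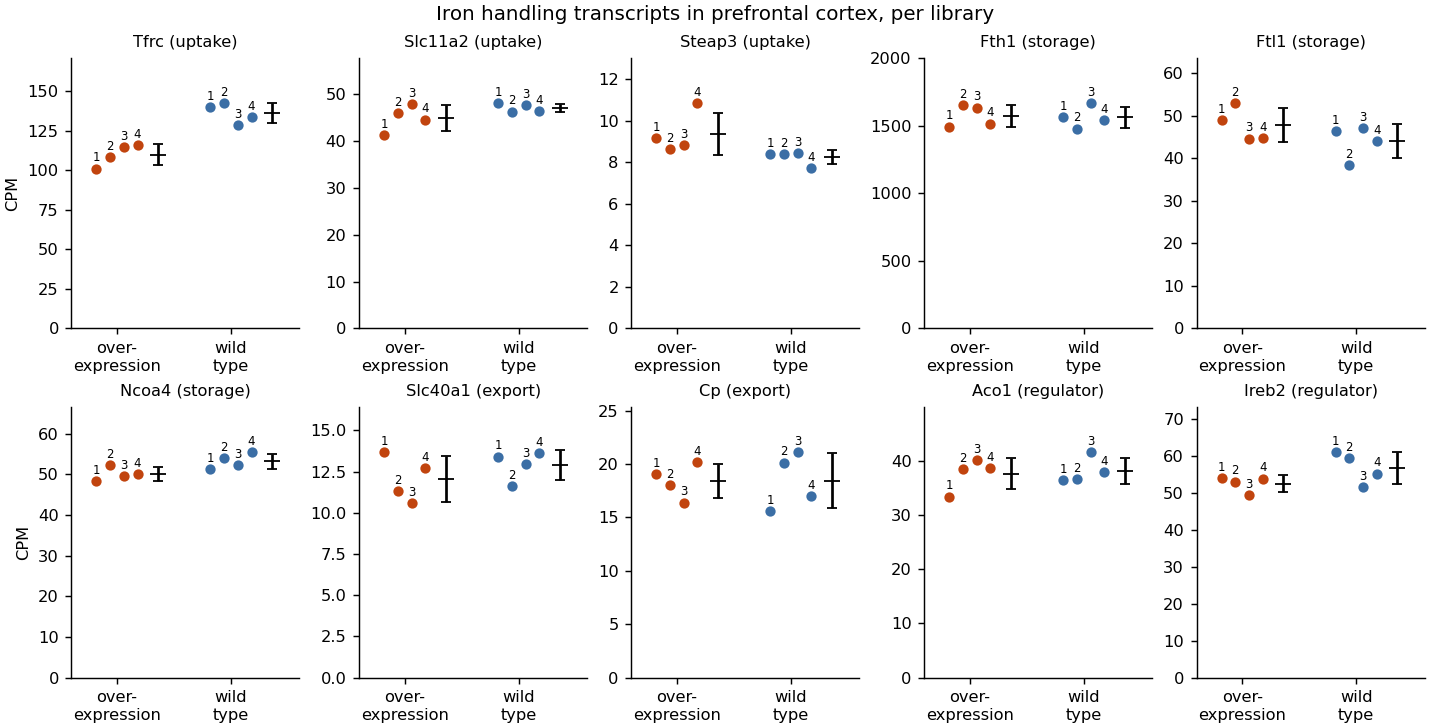
Levels in CPM of the 10 genes in each library, overexpression on the left and wild type on the right of each panel, with the known role in brackets; points are libraries numbered by replicate and bars are mean ± SD (n = 4). Tfrc lies at 101 to 116 CPM in the libraries labelled overexpression and at 129 to 143 CPM in wild type, and apart from Steap3 the groups of the other genes overlap.

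Across the set, 1 of 10 genes was called by edgeR at an adjusted p under 0.05, and this was Tfrc, against 0.034% of all genes tested (6 of 17636), 0.0113% called higher and 0.0227% called lower. Since that contrast chose Tfrc, nothing is read from the count. Groups did not overlap for 2 of the 10, Tfrc lower and Steap3 higher, where 5.84% of all genes tested had groups that did not overlap, 2.82% with overexpression higher and 3.02% with it lower. Of the 10 fold changes 7 were below 0 and 3 above, with a median log2 fold change of -0.043, beside 0.0016 over all genes tested. Of the 9 genes chosen for function, none passed in edgeR, DESeq2 or limma-voom, and none had an unadjusted edgeR p under 0.05, which 10.7% of all genes tested had (5.24% higher and 5.43% lower). DESeq2, which also called Tfrc, called 0.249% of the 17636 genes, though it gave 3770 of them no adjusted p. Tfrc was not called by limma-voom (0.0113% of all genes called), without robust estimation (0.0113%), with the GC correction described further on (0.0284%) or with the replicate number as a block (0.00567%).

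Neither ferritin transcript passed the test. Fth1, the ferroxidase heavy chain (ENSMUSG00000024661, chr19:9980598-9985098, plus strand), had 1495, 1657, 1636 and 1516 CPM in overexpression replicates 1 to 4, against 1563, 1480.2, 1669 and 1540.4 CPM in wild-type replicates 1 to 4. The wild-type range enclosed all libraries labelled overexpression, and the 95% interval of the log2 fold change was -0.088 to 0.11 (estimate 0.012, SE 0.048, edgeR adjusted p = 0.95), which does not reach the size of the Tfrc difference in either direction. Ftl1, the light chain (ENSMUSG00000050708, chr7:45457944-45459884, minus strand), had 48.9, 52.9, 44.6 and 44.7 CPM in overexpression replicates 1 to 4, against 46.3, 38.4, 47.1 and 44.05 CPM in wild-type replicates 1 to 4. Overexpression replicates 1 and 2 lay above all wild-type libraries and wild-type replicate 2 below all others. The log2 fold change of Ftl1 was 0.12 (SE 0.071, 95% interval -0.026 to 0.27, edgeR adjusted p = 0.55). Ftl1 is uncertain, since 26.5% of its exon length is shared with an annotated gene on the opposite strand and 8.1% with a small RNA gene on the same strand, and the sources used here give neither the strand setting of the counting nor how multi-mapping reads were counted. The annotated ferritin copies Ftl1-ps1, Ftl2-ps and Fth-ps2 had mean levels of 0.15, 0.035 and 0.068 CPM in the libraries labelled overexpression and 0.081, 0.066 and 0.050 CPM in wild type.

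Ncoa4, the receptor that takes ferritin to the lysosome (ENSMUSG00000056234, chr14:32159865-32179855, plus strand), had 48.3, 52.3, 49.5 and 49.9 CPM in overexpression replicates 1 to 4, against 51.2, 54.03, 52.2 and 55.4 CPM in wild-type replicates 1 to 4. Of the libraries labelled overexpression 3 lay below the wild-type range and replicate 2 inside it. The log2 fold change was -0.090 (SE 0.055, 95% interval -0.20 to 0.024, edgeR adjusted p = 0.56).

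The export genes did not pass the test, and they held the widest spread of the set in each group, Slc40a1 in the libraries labelled overexpression (coefficient of variation 11.5%) and Cp in wild type. Slc40a1, ferroportin (ENSMUSG00000025993, chr1:45908068-45926523, minus strand), had 13.7, 11.3, 10.6 and 12.7 CPM in overexpression replicates 1 to 4, against 13.4, 11.6, 12.9 and 13.6 CPM in wild-type replicates 1 to 4 (log2 fold change -0.097, SE 0.10, edgeR adjusted p = 0.76). Its highest value of all was in overexpression replicate 1, the library with the lowest Tfrc. Cp, ceruloplasmin, made in brain mainly by astrocytes (ENSMUSG00000003617, chr3:19957054-20009145, plus strand), had 19.1, 18.03, 16.4 and 20.1 CPM in overexpression replicates 1 to 4, against 15.6, 20.1, 21.1 and 16.97 CPM in wild-type replicates 1 to 4. The wild-type range enclosed all 4 libraries labelled overexpression, with a coefficient of variation of 8.70% in the libraries labelled overexpression and 14.1% in wild type (log2 fold change -0.0052, SE 0.098, edgeR adjusted p = 0.99). With these errors the 95% intervals were -0.31 to 0.12 for Slc40a1 and -0.21 to 0.20 for Cp, so a difference as large as that of Tfrc lies at the edge of the first interval and outside the second.

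The regulators of the IRE did not pass either. Aco1, which encodes IRP1, a cytosolic aconitase when it holds an iron-sulfur cluster (ENSMUSG00000028405, chr4:40143081-40198338, plus strand), had 33.4, 38.4, 40.1 and 38.6 CPM in overexpression replicates 1 to 4, against 36.4, 36.5, 41.5 and 37.9 CPM in wild-type replicates 1 to 4. Overexpression replicate 1 was the lowest of the 8 and the rest were mixed (log2 fold change -0.018, SE 0.069, edgeR adjusted p = 0.95). Ireb2, which encodes IRP2, the regulator removed by FBXL5 when iron is plentiful (ENSMUSG00000032293, chr9:54863789-54912530, plus strand), had 53.9, 53.1, 49.3 and 53.9 CPM in overexpression replicates 1 to 4, against 61.1, 59.4, 51.5 and 55.3 CPM in wild-type replicates 1 to 4. Wild-type replicates 1 and 2 stood highest, and wild-type replicate 3 lay within the range of the libraries labelled overexpression. Among the 9 genes chosen for function Ireb2 had the lowest p, with a log2 fold change of -0.11 (SE 0.060, 95% interval -0.24 to 0.013, edgeR adjusted p = 0.52).

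**Figure D2:**
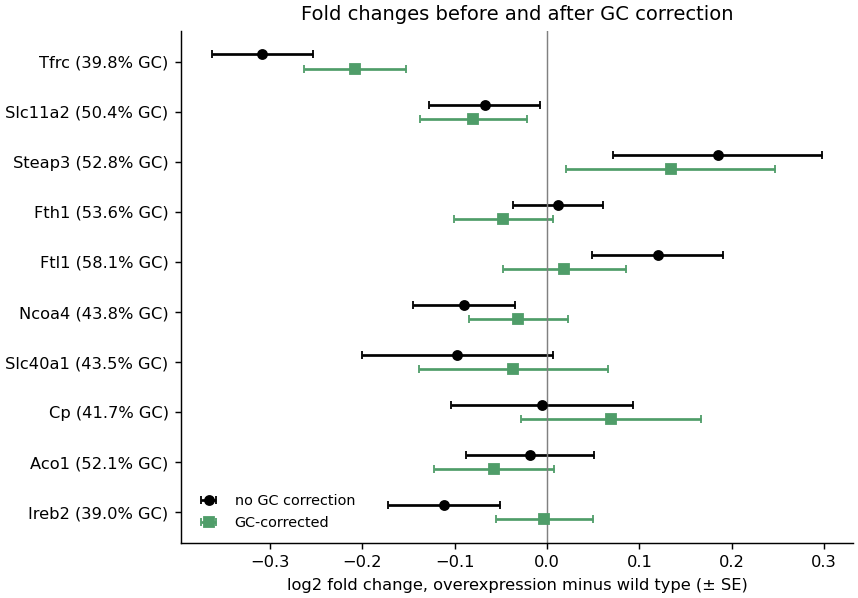
Log2 fold change, overexpression minus wild type, with its SE for the 10 genes, as measured (black circles) and after correction for transcript GC content (green squares); the GC content of each gene's longest coding transcript stands beside its name. The correction moves Tfrc to -0.21 from -0.31 and Ireb2 to -0.0028 from -0.11, and moves Ftl1 to 0.019 from 0.12.

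The order of these fold changes followed transcript GC content, as did those of genes at large. Spearman's rho between fold change and the GC content of the longest coding transcript was 0.83 over the 10 genes of the set and 0.78 without Tfrc, beside 0.65 over the 11326 genes with a mean of 5 CPM or more. These are descriptions over genes measured in the same 8 libraries, not over independent replicates. The 5 transcripts poorest in GC, Ireb2 (39.0% GC), Tfrc (39.8%), Cp (41.7%), Slc40a1 (43.5%) and Ncoa4 (43.8%), all had fold changes below 0. Among the 5 richer in GC, Slc11a2 (50.4%) and Aco1 (52.1%) were below 0, and Steap3 (52.8%), Fth1 (53.6%) and Ftl1 (58.1%) were above. The Fth1 value is that of its longest isoform, and its coding sequence held 49.9% GC. Within Tfrc the 3′ UTR of 2458 bases, which carries the stem-loops, held 36.6% GC and the coding sequence 41.6%.

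Tfrc was lower than most genes of its own GC content. As Tfrc was chosen by its p in this contrast, its place among them is a description only. The 486 other genes of at least 5 CPM within 1 point of its GC content had a median log2 fold change of -0.12, with 5th and 95th percentiles of -0.25 and 0.031, and 11 of them (2.26%) were lower than Tfrc. The difference of Tfrc from that median was -0.19 on the log2 scale. Ireb2, with nearly the same GC content, stood at -0.11 where its 362 neighbours had a median of -0.12, and Ncoa4 (-0.090 against -0.086), Slc40a1 (-0.097 against -0.090) and Ftl1 (0.12 against 0.088) also lay close to theirs. The difference from the median of the neighbours was 0.15 for Steap3, 0.092 for Cp, -0.061 for Slc11a2, -0.042 for Aco1 and -0.028 for Fth1.

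**Figure D3:**
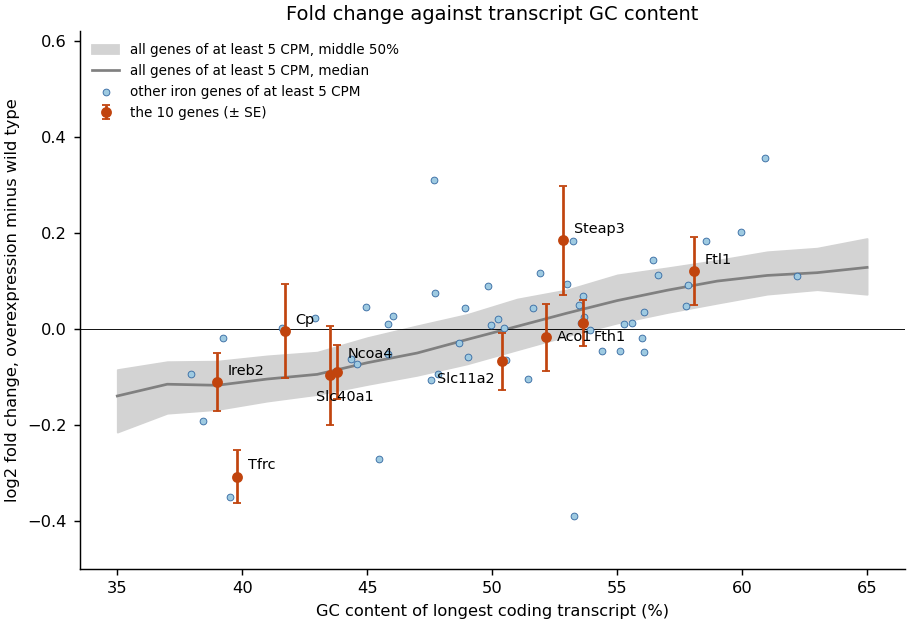
Log2 fold change, overexpression minus wild type, against GC content of the longest coding transcript; the grey line and band are the median and middle 50% of 11326 genes of at least 5 CPM in bins of GC, red points the 10 genes (± SE) and blue points other iron handling genes of at least 5 CPM. Ireb2, Slc40a1, Ncoa4 and Ftl1 lie on or close to the grey median, and Tfrc lies at -0.31 where its GC neighbours have a median of -0.12.

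The libraries also differed in this GC trend one by one. The slope per 10 points of GC of a library's log2 CPM, as the deviation from a gene's average, was 0.043, 0.036, 0.094 and 0.054 in overexpression replicates 1 to 4, against -0.070, -0.13, 0.021 and -0.046 in wild-type replicates 1 to 4. Every library labelled overexpression had a higher slope than every wild-type library, so GC trend and group cannot be told apart here. Of the wild-type libraries, replicate 3 had the highest slope and the lowest Tfrc, and replicate 2 the lowest slope and the highest Tfrc. Among the libraries labelled overexpression this was not so: the pair with the highest slopes, replicates 3 and 4, also had the highest Tfrc. After a spline of each library on GC content was taken out, Tfrc in overexpression replicates 1 to 4 lay at -0.36, -0.23, -0.10 and -0.15 on the log2 scale relative to the wild-type mean, where it had lain at -0.43, -0.33, -0.25 and -0.23 before. In wild-type replicates 1 to 4 it lay at -0.0017, 0.0053, -0.0027 and -0.00081 around that mean, where it had lain at 0.040, 0.067, -0.080 and -0.026 before. The groups still did not overlap. The fitted log2 fold change was then -0.21 (SE 0.055), and in that fit Tfrc was not called (edgeR adjusted p = 0.61). After the same correction the fold changes of the other 9 lay between -0.080 (Slc11a2) and 0.13 (Steap3), Fth1 (-0.047) and Cp (0.069) changed sign, and the groups of Steap3 overlapped. The correction moved the median of all genes tested to -0.013.

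**Figure D4:**
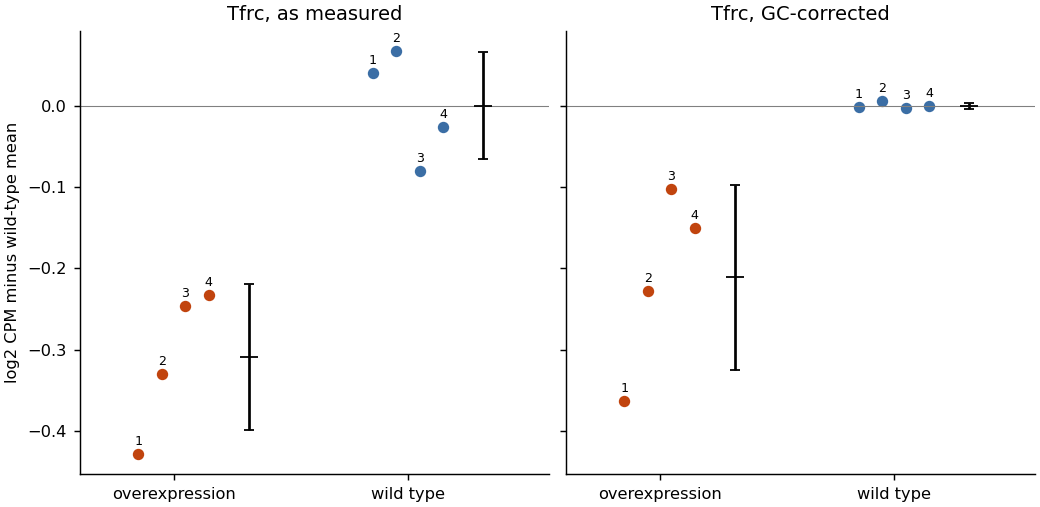
Tfrc in each library as log2 CPM minus the wild-type mean, as measured (left) and after correction for transcript GC content (right), with overexpression left of wild type in each panel; points are libraries numbered by replicate and bars mean ± SD (n = 4). The wild-type libraries draw together on the right, and the libraries labelled overexpression spread from -0.36 to -0.10 below them.

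The decrease in Tfrc was of similar size whichever library was left out, but its call changed. These fits share most of their libraries with the contrast that chose Tfrc, so that size is a description only. Over the fits that left out each library in turn the log2 fold change ran from -0.33 to -0.27, and edgeR called Tfrc only without overexpression replicate 4 (adjusted p = 0.034); the highest adjusted p was 0.22, without wild-type replicate 1. Without overexpression replicates 2 and 3, whose Ino80e lay in the wild-type range, the log2 fold change was -0.33 (SE 0.071, edgeR adjusted p = 0.30).

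Marker levels of cell types known for iron traffic are given beside these values, and their part in the differences was not tested. The 8 endothelial markers, among them Cldn5, Slco1a4 and Pecam1, summed to 342 to 372 CPM in the libraries labelled overexpression and 323 to 407 CPM in wild type, and none of the 8 passed. The 8 oligodendrocyte markers summed to 4322 CPM in overexpression replicate 1, the library with the lowest Tfrc, to 5945 to 6262 CPM in the other libraries labelled overexpression and to 5192 to 6235 CPM in wild type. The 8 microglial markers summed to 369 to 454 CPM in the libraries labelled overexpression and 355 to 405 CPM in wild type. Their fold changes were above 0 for 5 and below 0 for 3. At an unadjusted edgeR p under 0.05, 3 of the 8 were higher, where 5.24% of all genes tested were. These 3, Cx3cr1, Tmem119 and Csf1r, stood at 0.14, 0.23 and 0.18 on the log2 scale, and at 0.13, 0.13 and 0.11 after GC correction. The 8 astrocyte markers summed to 5703 to 6595 CPM in the libraries labelled overexpression and 5795 to 6670 CPM in wild type. Of these 8, 3 had fold changes above 0 and 5 below, with a median of -0.020. Only 1 of them, Gfap, was higher at such a p (log2 0.48, SE 0.16), and it stood at 0.40 after GC correction. Of the 8 neuronal markers 6 had fold changes below 0, as had 8731 of the 17636 genes tested. Among the 8, Nefl (log2 -0.16, SE 0.056) and Stmn2 (log2 -0.11, SE 0.052) were lower at such a p, where 5.43% of all genes tested were. After GC correction Nefl stood at -0.15 and Stmn2 at -0.068, and the median of the 8 at -0.023, from -0.055 before. Gfap, Nefl and Stmn2 did not pass over all genes, nor did any of the microglial markers. Choroid plexus markers, led by Ttr, summed to 1145 CPM in wild-type replicate 4, to 112 CPM in overexpression replicate 3 and 110.0 CPM in wild-type replicate 3, and to at most 18.8 CPM elsewhere, and 1 of these 8 markers, Kcnj13, was lower at such a p. Erythroid markers, led by the globin genes, summed to 104 to 144 CPM in the libraries labelled overexpression and 104 to 225 CPM in wild type. No defining marker of the endothelial, oligodendrocyte, microglial, astrocyte, neuronal, choroid or erythroid lists was at 0 in all libraries.

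Other genes known or reported to carry an IRE, or matching the stem-loop by sequence alone, gave no common pattern. Binding by the iron regulatory proteins was not tested, and Epas1, Cdc14a and Cdc42bpa had no match to the stem-loop as searched here. Of the genes known for a 5′ IRE beside Fth1, Ftl1 and Slc40a1, the hypoxia factor gene Epas1 stood at a log2 fold change of 0.041 (SE 0.053). Alas2, the erythroid enzyme that starts heme synthesis, had 4.29 to 5.48 CPM in the libraries labelled overexpression and 4.48 to 8.83 CPM in wild type (log2 fold change -0.39, SE 0.18, edgeR adjusted p = 0.44); its highest value was in wild-type replicate 3, the library with the highest erythroid sum. Of the genes reported with a 3′ IRE beside Tfrc and Slc11a2, Cdc42bpa stood at -0.071 (SE 0.046) and Cdc14a at 0.11 (SE 0.18). Of 103 tested genes with the stem-loop in the 3′ UTR, 53 had fold changes above 0 and 50 below, with a median log2 fold change of 0.013, and the 1 gene called was Tfrc, where 0.034% of all genes tested were called. As Tfrc was chosen by that p, nothing is read from this count.

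Beyond the set, 73 further iron handling genes were listed by role, of which 67 were tested and none was called in edgeR, DESeq2 or limma-voom. At an unadjusted edgeR p under 0.05 there were 2 higher and 3 lower, where 5.24% of all genes tested were higher and 5.43% lower at such a p. The median log2 fold change was 0.023, with 42 above 0 and 25 below. Slc25a28, a mitochondrial iron importer (mitoferrin 2), had the lowest p: it stood at 21.9 ± 0.905 CPM in the libraries labelled overexpression and 17.2 ± 2.30 CPM in wild type (SD, n = 4 each), with no overlap (log2 fold change 0.36, SE 0.091, edgeR adjusted p = 0.26). Slc22a17, a receptor for the siderophore-binding protein lipocalin 2, was also higher without overlap, at 509 to 540 CPM in the libraries labelled overexpression and 473 to 507 CPM in wild type (log2 0.11, SE 0.045). Both transcripts are rich in GC, at 60.9% and 62.2%, and after GC correction stood at 0.24 and -0.015, with overlap. Groups did not overlap for 4 of the 67, 3 higher and 1 lower, where 5.84% of all genes tested did not (2.82% higher and 3.02% lower). The other gene that was higher without overlap was Pcbp1, of an iron chaperone, at a log2 fold change of 0.048 (SE 0.048) that turned to -0.056 after GC correction, named after its value was seen.

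The lower end of that list held Steap2, another metalloreductase (log2 -0.35, SE 0.14), and Flvcr1, a heme and choline transporter gene (log2 -0.27, SE 0.13). Nubpl, an assembly factor for the iron-sulfur clusters of respiratory complex I, stood at 3.60 ± 0.244 CPM in the libraries labelled overexpression and 4.48 ± 0.256 CPM in wild type (SD, n = 4 each), without overlap (log2 -0.32, SE 0.16). Also by the rule for naming genes, Hfe, a partner of the transferrin receptor in iron sensing, stood at 0.31 (SE 0.15) on the log2 scale, Alad, of heme synthesis, at 0.18 (SE 0.095), Rnf217, a ubiquitin ligase that acts on ferroportin, at -0.19 (SE 0.10) and Steap4 at -0.79 (SE 0.43) at under 2 CPM. None of these passed, and after GC correction Alad stood at 0.075 and Rnf217 at -0.078.

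By role, the regulators of iron (9 tested) had a median log2 fold change of 0.18, or 0.13 after GC correction, with 8 above 0 and 1 below, and the uptake genes (9 tested) one of 0.083, or 0.051 after GC correction, with 6 above 0 and 3 below. None of these was called. The heme genes (18 tested, median log2 fold change 0.017), the mitochondrial iron-sulfur genes (19 tested, median -0.048) and the cytosolic iron-sulfur genes (9 tested, median 0.013) had no call either. Fbxl5, the iron sensor that removes IRP2, stood at 71.1 ± 0.864 CPM in the libraries labelled overexpression and 71.0 ± 3.74 CPM in wild type (SD, n = 4 each). Hmox1, the inducible heme oxygenase gene, stood at 4.06 ± 0.416 CPM in the libraries labelled overexpression and 4.25 ± 0.310 CPM in wild type. The transferrin gene Trf was listed at 141, 203, 206 and 192 counts in overexpression replicates 1 to 4 and 138, 131, 184 and 200 counts in wild-type replicates 1 to 4, and is uncertain: 63.5% of its exon length is shared with another annotated gene on the same strand.

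Hypoxia-responsive genes, and genes linked to oxidative stress or iron-driven lipid oxidation, had no call among 15 and 12 tested. Their median log2 fold changes were -0.034 and 0.053, and each list held 2 genes higher and 1 lower at an unadjusted edgeR p under 0.05, where 5.24% of all genes tested were higher and 5.43% lower. Slc2a1, the glucose transporter of the blood-brain barrier, stood at 92.9 ± 1.15 CPM in the libraries labelled overexpression and 83.4 ± 2.78 CPM in wild type (log2 0.16, SE 0.050, edgeR adjusted p = 0.31; SD over 4 libraries a group). Aifm2, which encodes the ferroptosis suppressor FSP1, stood at 8.36 ± 0.665 CPM in the libraries labelled overexpression and 6.39 ± 0.323 CPM in wild type (log2 0.39, SE 0.12, edgeR adjusted p = 0.31), and Slc3a2, of the cystine transporter, at 128 ± 4.07 CPM in the libraries labelled overexpression and 115.0 ± 1.64 CPM in wild type (log2 0.15, SE 0.049, edgeR adjusted p = 0.31). Acsl4, of lipid oxidation sensitivity, stood at -0.18 (SE 0.065) on the log2 scale, P4ha1, a collagen-modifying enzyme gene, at -0.17 (SE 0.077) and Hk2, a hexokinase gene, at 0.29 (SE 0.14). Groups did not overlap for 1 of the 15, Slc2a1, and 2 of the 12, Aifm2 and Slc3a2, all higher. Over all genes tested this held for 2.82%. After GC correction Acsl4 stood at -0.072, P4ha1 at -0.13, Slc2a1 at 0.090 and Slc3a2 at 0.097. Aifm2 then stood at 0.33 and Hk2 at 0.26. The groups of Slc3a2 then overlapped, while those of Slc2a1 and Aifm2 still did not, and none of these genes was called in that fit.

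The genes most like Tfrc across libraries were sought with and without the group difference. After each group's mean was subtracted, Pearson correlations of log2 CPM with Tfrc were ranked among the 11326 genes of at least 5 CPM. The highest were those of Arpp21 (0.96), Tctn1 (0.95), Nipsnap2 (0.95), Cbx1 (0.94) and Usp11 (0.93), over 8 libraries that share depth, scaling and GC trend. Picked as the highest of so many, these are descriptions only. Without that subtraction the highest were Yme1l1 (0.98), Armcx3 (0.98), Usp33 (0.97), Grsf1 (0.97) and Copg2 (0.95). These genes had transcript GC contents of 38.0% to 48.6% and log2 fold changes of -0.17 to -0.070. Their correlations include the group difference by which Tfrc was chosen. Within the set, after subtraction, Slc11a2 was the closest to Tfrc (0.55) and Ftl1 the farthest (-0.65), with Steap3 at 0.35, Ireb2 at 0.31, Aco1 at 0.25, Ncoa4 at 0.15, Fth1 at -0.16, Cp at -0.24 and Slc40a1 at -0.55.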

How the data were processed

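Poly(A) RNA was sequenced as strand-specific (dUTP) libraries, per the labels' protocols. The authors deposited raw read counts per Ensembl gene, and the submitters' processing notes list Trimmomatic 0.39, STAR 2.7.10 and featureCounts 2.0.3 with the builds mm10 and GRCm38, without roles. The sources used here give no strand setting or annotation release. Identifiers were matched to GENCODE M21 (54409 with a symbol, 37 without). GC content is that of the longest coding transcript.

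Low counts were removed with filterByExpr and libraries TMM-scaled. Groups were compared over the whole table by the quasi-likelihood test of edgeR 4.0.16 in R 4.3.3, with robust estimation, adjusted by Benjamini-Hochberg over all genes, threshold 0.05. For the GC correction, deviations of log2 CPM (prior count 2) from the gene mean were fitted on GC content by a natural spline (5 df) within a library and entered as an offset. DESeq2 1.42.0, limma 3.58.1 and sva 3.50.0 served as alternatives, and the test was tested on simulated data. Depth was 44762378 to 60490153 counts per library. Counts of the closest pair of libraries gave a chi-square over its df of 9.56, above sampling noise.

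The genes and lists were chosen with earlier results of these data known. The text names all 10 genes, the 10 further iron genes of lowest p and 3 per context list, the IRE genes (1 is not reported here) and the nearest genes to Tfrc; Trf, Fbxl5, Hmox1 and Pcbp1 were named after their values were seen.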

Additional observations from a re-analysis of the deposited data

Results flagged for a closer look

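In 36 groups of 4 libraries examined, 5 had 1 library far from the other 3, where chance alone gives about 1 in 20. Steap3 was lowest in wild-type replicate 4 at 7.72 CPM, where the other wild-type libraries had 8.37 to 8.44 CPM. Oligodendrocyte markers summed to 4322 CPM in overexpression replicate 1. Choroid plexus markers summed to 112 CPM in overexpression replicate 3 and 1145 CPM in wild-type replicate 4. Erythroid markers summed to 225 CPM in wild-type replicate 3.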

How the results depend on the processing

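Tfrc stayed below 0 in all 21 alternatives, with log2 fold changes of -0.33 to -0.20, and kept its call in 7. It kept the call with RLE or upper-quartile scaling, with no or a stricter low-count filter, in DESeq2, with 1 surrogate variable and without overexpression replicate 4. It lost it in limma-voom (-0.31, adjusted p = 0.11), without robust estimation (-0.31, adjusted p = 0.11), with the GC correction (-0.21, adjusted p = 0.61), with GC and length correction (-0.20, adjusted p = 0.49) and without overexpression replicates 2 and 3 (-0.33, adjusted p = 0.30), and the count of genes called in the set was then 0. With the replicate number as a block it was lost too (-0.31, adjusted p = 0.078, 0 called), as with the GC correction and the replicate block together (-0.21, adjusted p = 0.71, 0 called). Same-numbered libraries did not deviate together (correlations -0.025, -0.070, 0.077 and 0.033 for replicates 1 to 4), so the numbers are not taken as pairs. Leaving out each library in turn gave Tfrc -0.33 to -0.27, 0 to 1 genes called in the set, and a median of the set of -0.066 to -0.018. Of the further iron genes 1, Slc25a28, was called with no low-count filter.

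None of the other 9 genes was called in any alternative. Some of their fold changes near 0 changed sign. With the GC correction alone, with the replicate block added, with length added, and without overexpression replicates 2 and 3, Fth1 stood at -0.047, -0.048, -0.051 and -0.054, and Cp at 0.069, 0.079, 0.073 and 0.087. Cp also stood at 0.0016 with upper-quartile scaling and at 0.0010 with the replicate block. Ireb2 stood at 0.0038 with GC and length correction and Slc40a1 at 0.032 without overexpression replicates 2 and 3. With each library left out in turn, Fth1 ran from -0.016 to 0.045, Cp from -0.077 to 0.067 and Aco1 from -0.050 to 0.035. The cause of these changes was not tested.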
